A study of Mus musculus with 3 samples.

Results

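The genes described here encode surface receptors and adhesion molecules of fibroblasts: Thy1, Cd44, Itgb1, Itgav, Itga5, Cdh2, Cdh11, Pdgfra and Pdgfrb. They were chosen by name as rows of the count table, 9 of its 50507 genes, with earlier results of these data known. They were followed over 7 days of early reprogramming and in every transfected condition. The cells were primary mouse embryonic fibroblasts (MEFs) of wild-type BL6 animals at passage 2, transduced with a lentivirus that carries Oct4, Sox2, Klf4 and c-Myc under doxycycline control and with a lentivirus for the rtTA activator (multiplicity of infection 1). RNA was counted in bulk by CEL-Seq2, which reads the 3′ end of a transcript and counts molecules through unique molecular identifiers (UMIs). The untransfected time course ran from Day00, before induction, to Day06. In the screen, the same kind of cells were transfected and read at day 6, with 40 nM of a pool of siRNAs to 1 of 33 regulators, with a non-targeting control siRNA (nt) or with the reagent alone (Mock). All induced cells were grown with 2 ug/mL doxycycline, LIF, 50 ug/mL ascorbic acid, 3 uM of the GSK3 inhibitor chiron and 0.25 uM of Alk5i, an inhibitor of the TGF-beta receptor, so that every day after Day00 and every transfected condition shares these agents as well as the 4 factors.

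Thy1 is a lipid-anchored glycoprotein by which fibroblasts are commonly sorted. Cd44 is the main receptor for hyaluronan, a sugar polymer of the matrix. Integrins are pairs of an alpha and a beta chain that tie the actin cytoskeleton to matrix proteins: Itgb1 is the beta chain shared by most collagen, laminin and fibronectin receptors, Itga5 its partner in the classical fibronectin receptor, and Itgav the alpha chain of the vitronectin receptors. Cdh2 (N-cadherin) and Cdh11 (OB-cadherin) join mesenchymal cells to each other, while epithelial and pluripotent cells use Cdh1 (E-cadherin). Pdgfra and Pdgfrb are the receptor tyrosine kinases through which platelet-derived growth factor drives fibroblast growth and migration. In early reprogramming of fibroblasts such mesenchymal genes are known to give way to epithelial ones.

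The annotation (GENCODE vM21 on GRCm38, the build of the files) places all 9 as protein-coding genes. Thy1 lies at chr9:44043384-44048579 on the plus strand, Cd44 at chr2:102811141-102901665 on the minus strand and Itgav at chr2:83724397-83806916 on the plus strand. Itgb1 lies at chr8:128685654-128733200 on the plus strand and Cdh11 at chr8:102632095-102785642 on the minus strand. Itga5 lies at chr15:103344286-103366763 on the minus strand and Pdgfra at chr5:75152292-75198215 on the plus strand. Cdh11 shares stretches of at least 95% identity with 7 other annotated genes, among them Gm3365 and 6820431F20Rik, all at least 3143 bases from the 3′ end of its transcripts. Exons of Itgav overlap Gm13684 on the opposite strand, and those of Pdgfra overlap Gm42802 and Gm42803 there and Mir7025 on its own strand, so a share of their counts could belong to these neighbours.

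Promoters of the 2 integrin chains that fell together and of Cd44, which was not called at Day06, are shown from 250 bases before to 50 bases after the transcription start (RefSeq, GRCm38.p6). Capitals mark matches to GC box (GGGCGG) and TEAD (GGAATG) letters on either strand. The RefSeq table held an entry for 5 of the 9 genes.
Itgb1 (chr8:128685404-128685703, plus strand): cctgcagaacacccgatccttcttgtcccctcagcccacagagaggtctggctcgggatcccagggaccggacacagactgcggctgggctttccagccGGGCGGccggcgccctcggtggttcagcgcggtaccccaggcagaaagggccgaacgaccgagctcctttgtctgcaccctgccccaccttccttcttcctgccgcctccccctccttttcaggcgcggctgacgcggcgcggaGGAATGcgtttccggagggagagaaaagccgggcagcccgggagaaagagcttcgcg
Itgav (chr2:83724147-83724446, plus strand): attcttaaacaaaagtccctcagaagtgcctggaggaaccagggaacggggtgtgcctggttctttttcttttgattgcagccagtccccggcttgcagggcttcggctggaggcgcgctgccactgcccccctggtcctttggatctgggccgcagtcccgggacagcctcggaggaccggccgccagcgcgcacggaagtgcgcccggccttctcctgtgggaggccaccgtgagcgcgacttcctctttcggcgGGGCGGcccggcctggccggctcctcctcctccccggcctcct
Cd44 (chr2:102901616-102901915, minus strand): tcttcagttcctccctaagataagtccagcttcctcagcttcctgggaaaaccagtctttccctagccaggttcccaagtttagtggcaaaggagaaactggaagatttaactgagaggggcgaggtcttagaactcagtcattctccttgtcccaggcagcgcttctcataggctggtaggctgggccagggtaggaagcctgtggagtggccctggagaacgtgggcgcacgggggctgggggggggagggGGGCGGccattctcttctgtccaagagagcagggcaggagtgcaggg
Each of these windows held 1 GC box, and at least 1 was present in 35.7% of 32851 promoters of this length in the table. The Itgb1 window also held 1 TEAD match, which 14.7% of promoters had. None of the 3 windows held the TATA box letters TATAAA, which stood in 13.6% of promoters. The AP-1 letters TGACTCA, present in 5.2% of all promoters, were in none of them either. The same was true of CAGGTG, the E-box bound by Zeb and Snai factors, with 20.2% of promoters holding it. A match describes letters and not a bound site. GC made up 67.3% of the Itgb1 and Itgav windows and 58.0% of the Cd44 window, with a median of 52.7% over all promoters.

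The remaining pair of genes maps to chromosome 18, Cdh2 at chr18:16588877-16809246 on the minus strand and Pdgfrb at chr18:61045150-61085061 on the plus strand.

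The series holds 127 libraries of sufficient depth, with 29656 to 235292 counts each: 21 of the time course (3 a day), 3 of nt, 5 of Mock and 98 of siRNAs (3 each, 2 for siMtf1). Values are CPM, the counts of a gene scaled to the same TMM-adjusted library total over the 3013 genes that passed a low-count filter, and since the method counts molecules, they can be compared between genes without scaling by length. Conditions are named as their columns are labelled. Each of the 3 sequenced pools held Mock in 2 columns that share a name, and 1 column was left out for depth, so that the 5 Mock libraries come from 3 pools. Whether such columns are separate cultures is not given in the sources used here. The target's own share of counts was below that in the other transfected libraries for 23 of 33 siRNAs, but most targets had too few counts for this to check the labels: in siWdr5 libraries 7 Wdr5 counts stood against 7.45 expected from the other libraries (ratio 0.940, 95% counting interval 0.378 to 1.94), and in siEp300 libraries 17 Ep300 counts against 11.5 (1.47, 0.859 to 2.36). In siBrca1 libraries 4 Brca1 counts stood against 3.49 (1.15, 0.313 to 2.94). In siHdac1 libraries the target stood higher, with 18 counts against 9.83 (1.83, 1.08 to 2.89). At Day00 the 10 listed fibroblast markers, such as Col1a1 and Vim, summed to 6055 to 8216 CPM per library, and the 6 smooth muscle and pericyte markers, such as Acta2 and Tagln, to 4003 to 5471 CPM. Of the epithelial markers Cdh1, Epcam and Krt18 were at 0, and endothelial Pecam1 and Cdh5 were at 0 too. Of the 7 macrophage and blood markers 3 were detected at Day00, summing to 124.1 to 226 CPM, with Ptprc, Csf1r, Tyrobp and Hbb-bs at 0, and by Day06 the sum was 18.1 to 89.0 CPM, without overlap. By Day06 the fibroblast sum was 2548 to 3190 CPM and the smooth muscle and pericyte sum 145 to 460 CPM, while the epithelial sum went from 20.5 to 24.8 CPM at Day00 to 74.2 to 253 CPM, and the part of these shifts in the member changes was not tested. In bulk RNA, fewer cells of a type and less RNA per cell cannot be told apart.

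Of the 9, 6 genes passed the low-count filter: Thy1, Cd44, Itgb1, Itgav, Cdh2 and Cdh11. Itga5, Pdgfra and Pdgfrb did not, and were tested in a second fit of 3138 genes that added them. At Day00 Itgb1 was the most abundant member, with 882 ± 192 CPM (SD, n = 3), followed by Itgav (674 ± 219), Cd44 (570.0 ± 20.3), Cdh11 (469 ± 55.3) and Thy1 (304 ± 83.0). Libraries of Itgav overlapped those of Itgb1, Cd44 and Cdh11, while each Itgb1 library lay above each Cd44, Cdh11 and Thy1 library. Cdh2 (119 ± 25.9), Pdgfrb (80.1 ± 36.8) and Pdgfra (59.6 ± 24.7) were lower. Itga5 was close to undetected: 28 counts in 21 of 127 libraries, none of them at Day00, where 0 counts of 227117 allow a level of up to 13.2 CPM. Its highest mean was 19.1 CPM, at Day01, and no comparison called it. A change of this chain was not detectable at this depth.

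The time course asks how these surface genes move while the 4 factors act. Of 54 member-day pairs, 23 were called lower than Day00 (edgeR quasi-likelihood test, Benjamini-Hochberg adjusted p under 0.05) and none higher, beside 9.33% of all gene-day pairs. Without replicate 1, 2 or 3 the count was 14 to 16. By Day06 the 2 abundant integrin chains, both cadherins and Pdgfrb had fallen, whereas Thy1 and Cd44 were not called. That is 5 of 9 members, where 11.5% of all tested genes were called lower. Leaving out 1 replicate gave 2 to 3 members, and limma on the deposited log2 values 1.

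Itgb1 was low from Day01 on. Its libraries gave 801, 1101 and 745 CPM at Day00 in replicates 1, 2 and 3, 367, 464 and 433 at Day01 and 252, 235 and 252 at Day06. Every library from Day01 on lay below every Day00 library. Against Day00 it fell by 1.01 on the log2 scale (SE 0.23, adjusted p = 0.000397) at Day01, when 6.80% of tested genes were lower, and by 1.77 (SE 0.24, adjusted p = 1.39e-10) at Day06. Between these days the difference lay between -1.23 (Day02) and -1.12 (Day05). Without replicate 2 the Day01 call was lost (log2 fold change -0.86, adjusted p = 0.0712).

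Itgav was also lower on every later day, with a wider spread. Its libraries gave 903, 466 and 654 CPM at Day00, 344, 366 and 319 at Day01, 178, 186 and 245 at Day05 and 459.9, 343 and 218 at Day06. It fell by 1.00 on the log2 scale (SE 0.26, adjusted p = 0.00418) at Day01, was lowest at Day05, 1.66 below Day00 on the log2 scale (SE 0.27, adjusted p = 5.27e-08), and stood at -1.10 (SE 0.26, adjusted p = 0.000417) at Day06. Day03 was the day on which its libraries overlapped those of Day00, with 332, 506 and 290.3 CPM. The Day01 call was lost without replicate 1 (adjusted p = 0.102), the Day03 call without replicate 1 (0.196) or 3 (0.176) and the Day06 call without replicate 3 (0.0651). Without the replicate block the Day01 and Day03 calls were lost (adjusted p = 0.0856 and 0.134).

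By its mean, Cdh11, the mesenchymal cadherin, dropped, came back and dropped again. Its libraries held 493, 508 and 406 CPM at Day00 and 138, 147 and 125.3 at Day01, then 429, 334 and 292 at Day02 and 489.6, 307 and 369 at Day03. From there they went to 292, 172 and 145 at Day04, 165, 119 and 70.9 at Day05 and 178, 181 and 184 at Day06. All 3 Day01 libraries lay below all Day00 and all Day02 libraries, and Day02 and Day03 overlapped Day00. The difference at Day01 was -1.72 on the log2 scale (SE 0.34, adjusted p = 4.11e-05), and at Day02 and Day03 the differences from Day00 were -0.41 (adjusted p = 0.374) and -0.25 (adjusted p = 0.661). The rise from Day01 to Day02, a comparison added after these values were seen, was 1.31 (SE 0.34, adjusted p = 0.00725). Cdh11 was the member called in it, with 3.42% of all genes called higher. This rise kept its direction but lost its call without replicate 1, 2 or 3 (log2 fold changes 1.19, 1.45 and 1.36, adjusted p = 0.111, 0.0502 and 0.0629). With limma on the deposited log2 values neither the Day01 difference (-1.39, adjusted p = 0.105) nor the rise (0.83, adjusted p = 0.564) was called. The Day01 libraries held 6, 12 and 11 Cdh11 counts. The later decrease was called at Day04 (log2 fold change -1.23, SE 0.29, adjusted p = 0.000531), Day05 (log2 fold change -2.05, SE 0.33, adjusted p = 3.38e-08) and Day06 (log2 fold change -1.32, SE 0.31, adjusted p = 0.000317), days on which 10.4%, 15.0% and 11.5% of tested genes were called lower. The Day04 call was lost with a filter of 1 count in 3 libraries (adjusted p = 0.0523) and the Day06 call with limma (0.0627).

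Cdh2 was scarcer, with 5, 5 and 18 counts in the Day00 libraries (103, 106 and 149 CPM). Its values were 0, 39.8 and 32.2 CPM at Day05 and 29.7, 54.2 and 27.3 at Day06. All libraries from Day01 to Day06 lay below all Day00 libraries. The decrease passed the test at Day05 (log2 fold change -2.22, SE 0.66, adjusted p = 0.0049) and Day06 (log2 fold change -1.83, SE 0.65, adjusted p = 0.0284). With 9 counts at Day06 against 28 at Day00, the ratio of counts over library totals was 0.275 (exact 95% interval 0.114 to 0.60, counting error only). The Day05 call was lost without replicate 1 (adjusted p = 0.072) or 3 (0.1), and the Day06 call without replicate 1 (0.113), 2 (0.068) or 3 (0.404).

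The 2 growth factor receptors had few counts, and Pdgfrb was the one called. Pdgfrb had 82.1, 42.3 and 116 CPM at Day00 (20 counts) and 14.8, 18.1 and 20.5 at Day06 (5 counts), without overlap. It fell at Day02 (log2 fold change -2.34, SE 0.84, adjusted p = 0.0478), Day04 (log2 fold change -2.35, SE 0.79, adjusted p = 0.0222), Day05 (log2 fold change -1.86, SE 0.75, adjusted p = 0.0461) and Day06 (log2 fold change -2.16, SE 0.80, adjusted p = 0.0378). At Day02 6.44% of genes were called lower. Each of these 4 calls was lost when any replicate was left out, with adjusted p from 0.0786 to 0.668, and with DESeq2, with adjusted p from 0.112 to 0.172. Pdgfra gave 82.1, 63.5 and 33.1 CPM at Day00, 24.5, 0 and 9.12 at Day02, 157, 18.1 and 88.0 at Day03 and 29.7, 54.2 and 27.3 at Day06. It was not called on a single day, and its Day03 libraries ranged more widely than those of any other day. A test of any difference over the 7 days called it (adjusted p = 0.044), a call that was lost without replicate 1 (0.408) or 3 (0.45).

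Thy1 and Cd44 were not called lower at Day06. Thy1 had 328, 212 and 372 CPM at Day00 and 593, 271 and 266 at Day06, and its mean ran from 254 (Day04) to 377 (Day06) over the 7 days with overlapping libraries. Its difference at Day06 was 0.16 (SE 0.27, adjusted p = 0.738), and none of the 6 days nor the test over all days (adjusted p = 0.646) called it. Cd44 had 554, 593 and 563 CPM at Day00, 332, 271 and 361 at Day03, 594, 466 and 668 at Day04 and 489.6, 524 and 429 at Day06. It was called at Day03 alone (log2 fold change -0.79, SE 0.25, adjusted p = 0.0227), a day on which 5.81% of genes were called lower and when each Cd44 library lay below each Day00 library. That call did not hold without replicate 1, 2 or 3 (adjusted p = 0.0985, 0.235 and 0.0868) or without the replicate block (0.0836). Without the block, members called at Day03 went from 3 to 1, Itgb1. At Day06 the difference was -0.27 (SE 0.23, adjusted p = 0.452).

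Over all days, the test of any difference called 5 members: Cdh11 (adjusted p = 2.91e-10), Itgb1 (9.35e-10), Itgav (9.82e-08), Cd44 (0.0243) and Pdgfra (0.044). Cdh2 (0.0503) and Pdgfrb (0.051) missed the threshold, and both passed it with RLE scaling (adjusted p = 0.0241 and 0.0275), which made 7 members, and with nt and Mock joined (0.0446 and 0.0447). The Pdgfra call was lost with DESeq2 (0.126), unscaled totals (0.0721) and without the block (0.0765). Among all tested genes the share called was 42.5%, beside 5 of 9 members. For Cd44 this call was lost without replicate 2 (adjusted p = 0.105) or 3 (0.236), and without the replicate block the count was 3 of 9.

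**Figure D1:**
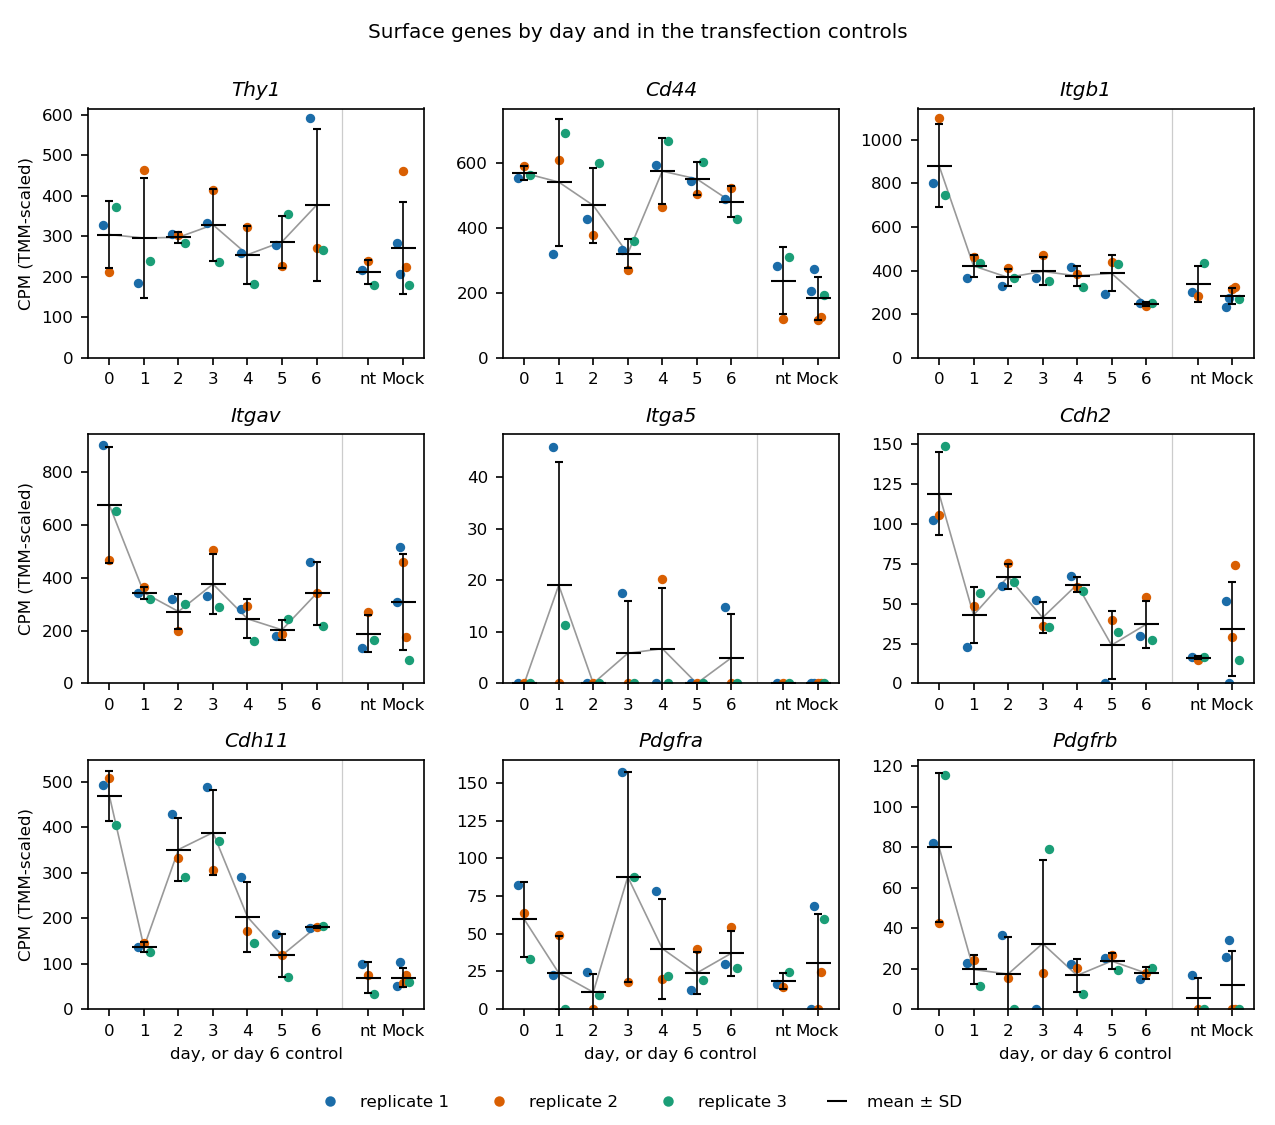
CPM of each gene (y axis, linear, scaled by TMM) on days 0 to 6 of the time course and in the nt and Mock controls of the screen at day 6 (x axis). Points are libraries coloured by replicate and black bars are mean ± SD (n = 3 libraries, 5 from 3 pools for Mock; error bars that would pass below 0 end at the axis). Itgb1 and Itgav dropped from Day00 to Day01, Cdh11 dropped at Day01, came back at Day02 and Day03 and dropped again, while Thy1 libraries overlapped on all days.

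The nt libraries are the reference of the screen, and 3 members differed between them and untransfected Day06 cells. Thy1, Cd44 and Cdh11 were lower in nt than at Day06, 3 of 9 members, with 11.0% of all genes called lower. Thy1 had 216, 239 and 179.7 CPM in nt and its log2 difference from Day06 was -0.80 (SE 0.28, adjusted p = 0.0244). Cd44 had 283, 119.6 and 310.4 CPM, a difference of -0.92 (SE 0.26, adjusted p = 0.00376). Cdh11 had 99.9, 74.8 and 32.7 CPM, a difference of -1.55 (SE 0.43, adjusted p = 0.0039). Each nt library of these genes lay below each Day06 library. The Thy1 call was lost without replicate 1 (adjusted p = 0.515) or 3 (0.0585) and without the block (0.0528), the Cd44 call without replicate 2 (0.267) and the Cdh11 call without replicate 3 (0.218). Itgav, at 133, 269 and 163 CPM, was not called (log2 fold change -0.76, SE 0.31, adjusted p = 0.0578), but was with RLE scaling (adjusted p = 0.0224), with unscaled totals (0.00322) and with DESeq2 (0.0378). Itgb1 was 339 ± 81.8 CPM in nt against 246 ± 9.97 at Day06, with every nt library above every Day06 library, and was not called (adjusted p = 0.152). The fibroblast marker sum was 1977 to 2898 CPM in nt and 2548 to 3190 CPM at Day06, overlapping, and the smooth muscle and pericyte sum was 65.4 to 89.7 CPM in nt and 145 to 460 CPM at Day06, without overlap. The neural sum was 117 to 147 CPM in nt and 184 to 267 CPM at Day06, also without overlap. Their part in these differences was not tested. Mock was not compared with Day06.

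No member was called between Mock and nt. The differences ran from -0.41 for Cd44 to 1.01 for Pdgfrb on the log2 scale, with SEs of 0.26 to 1.55, leaving out Itga5, which had no count in either. edgeR called 0 of 9 members, with 0 at an unadjusted p under 0.05, and DESeq2 and limma on the deposited log2 values also called 0. Among all tested genes 1.56% were called in either direction.

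The screen asks which regulators alter this programme. Of 297 member-siRNA pairs, 9 were called against nt, all higher, and they concerned 3 genes and 4 siRNAs: Thy1 in siCdk1, siWdr5 and siBard1, Cd44 in siCdk1, siEp300, siWdr5 and siBard1, and Cdh11 in siWdr5 and siCdk1. Without replicate 1, 2 or 3 the count was 5 to 7, and limma on the deposited log2 values called 1, Cdh11 in siWdr5. Over all genes and siRNAs 1.29% of pairs were called higher and 1.28% lower. All of these comparisons share the 3 nt libraries, whose levels of Thy1, Cd44 and Cdh11 were low within the series: nt ranked 34 of 42 conditions for Thy1, 32 for Cd44 and 32 for Cdh11.

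siWdr5, against a core subunit of the MLL and SET1 histone methyltransferases, gave the highest log2 fold change among the 9 called pairs. Cdh11 reached 304, 355 and 379.7 CPM, against 99.9, 74.8 and 32.7 in nt and 51.6, 103, 57.7, 74.5 and 59.7 in the 5 Mock libraries. Every siWdr5 library lay above every control library, and the mean lay between those of Day00 (469) and Day06 (181). The log2 fold change was 2.47 (SE 0.39, adjusted p = 6.39e-08). This call held under each alternative that was run, including limma on the deposited log2 values. Thy1 had 317, 512 and 456 CPM, 1.05 above nt (SE 0.27, adjusted p = 0.00177), and Cd44 449, 455 and 598 CPM, 1.04 above nt (SE 0.25, adjusted p = 0.000677). Neither gene overlapped nt. The share of all genes called higher in siWdr5 was 12.2%. The Thy1 call was lost without replicate 3 (adjusted p = 0.0758) and the Cd44 call without replicate 2 (0.0708).

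Both growth factor receptors were also at their highest siRNA mean in siWdr5, without passing the test. Pdgfra had 132, 85.3 and 37.97 CPM against 16.7, 15.0 and 24.5 in nt, with no overlap (log2 fold change 1.87, SE 0.75, adjusted p = 0.0511). It passed with RLE scaling (adjusted p = 0.0313), unscaled totals (0.036), DESeq2 (0.0457) and nt and Mock joined as control (0.0349). Pdgfrb had 9 counts in siWdr5 and 1 in nt, a ratio of 9.36 over library totals with an exact 95% interval of 1.30 to 410 (adjusted p = 0.0735). The integrin chains did not follow: Itgb1 had 383, 284 and 313 CPM (log2 fold change -0.13, SE 0.25, adjusted p = 0.746) and Itgav 330.2, 284 and 237 CPM (log2 fold change 0.56, SE 0.32, adjusted p = 0.185), both overlapping nt. Cdh2 was 41.0 ± 21.7 CPM against 16.0 ± 0.903, 10 counts against 4 (adjusted p = 0.317). In the same libraries the fibroblast marker sum was 4900 to 6028 CPM, above its range in nt (1977 to 2898 CPM), and the smooth muscle and pericyte sum 361 to 540 against 65.4 to 89.7 CPM, while the epithelial sum was 26.4 to 56.9 against 131 to 150 CPM. Their part in the member changes was not tested.

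siBard1 and siBrca1, against the 2 partners of a DNA repair ubiquitin ligase, were compared with siWdr5 because the study singles out these 3. In siBard1 libraries Thy1 had 479, 394 and 389 CPM (log2 fold change 1.01, SE 0.28, adjusted p = 0.00703) and Cd44 303, 411 and 562 CPM (log2 fold change 0.85, SE 0.26, adjusted p = 0.0159), with 5.54% of all genes called higher. The fibroblast marker sum was 2896 to 3657 CPM, beside 1977 to 2898 CPM in nt. The smooth muscle and pericyte sum was 463 to 671 CPM beside 65.4 to 89.7 CPM in nt and the epithelial sum 0 to 69.4 beside 131 to 150 CPM, both without overlap, and their part in the calls was not tested. All Thy1 libraries lay above nt, and 1 Cd44 library fell within the nt range. Thy1 lost its call without replicate 1 (adjusted p = 0.0665) or 3 (0.157), and Cd44 without replicate 2 (0.27) or 3 (0.28) and without the block (0.0763). Cdh2 reached its highest siRNA mean here, through replicate 1 alone (176, 34.3 and 34.7 CPM; adjusted p = 0.0963). In siBrca1 libraries edgeR called 0 of 9 members, with 3 at an unadjusted p under 0.05 and all 3 higher. DESeq2 and limma also called 0, and 4.22% of all genes were called in either direction. Thy1 (310.0, 274 and 377 CPM) and Itgav (393, 388 and 283 CPM) lay above every nt library there, with adjusted p of 0.235 and 0.122. With nt and Mock joined as control Cd44 was called in siBrca1 (log2 fold change 0.87, adjusted p = 0.0238). That fit counts Mock columns of the same pool as separate libraries.

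In direct comparisons of these 3 siRNAs, Cdh11 was the member called. Cdh11 was higher in siWdr5 than in siBard1 (112, 103 and 124.96 CPM), by 1.55 (SE 0.34, adjusted p = 0.000285), and than in siBrca1 (82.7, 22.8 and 106 CPM), by 2.12 (SE 0.40, adjusted p = 2.58e-05). The libraries did not overlap in either comparison, and the other 8 members were not called. With limma on the deposited log2 values neither difference was called (adjusted p = 0.405 and 0.145). The fibroblast marker sum was 4900 to 6028 CPM in siWdr5 and 2896 to 3657 CPM in siBard1, without overlap, and its part in the difference was not tested. Of all genes 3.19% and 3.02% were called higher in siWdr5. Thy1 differed by 0.04 (SE 0.24) and Cd44 by 0.19 (SE 0.23) between siWdr5 and siBard1 on the log2 scale. Between siBard1 and siBrca1 edgeR called 0 of 9 members, with 0 at an unadjusted p under 0.05, and DESeq2 and limma called 0. By comparison 0.863% of all genes were called in either direction. The largest such difference among members past the filter was Cdh2, 0.83 with an SE of 0.75.

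siCdk1, against the kinase of mitotic entry, had Thy1, Cd44 and Cdh11 called higher, as did siWdr5. Thy1 had 498, 654 and 525 CPM, its highest mean among the 42 conditions, and Cd44 564, 498 and 647 CPM, its highest among siRNAs. The log2 fold changes were 1.42 (SE 0.27, adjusted p = 0.000118) and 1.23 (SE 0.25, adjusted p = 0.000542), and both held without each replicate in turn but not with limma on the deposited log2 values (adjusted p = 0.0619 for both). Cdh11 was at 232, 156 and 192 CPM (log2 fold change 1.62, SE 0.44, adjusted p = 0.0177), a call lost without replicate 1 (adjusted p = 0.0669) or 3 (0.451) and without the block (0.0808). Against these 3 of 9 members stood 1.53% of all genes called higher. The fibroblast marker sum was 2257 to 3364 CPM, overlapping nt, while the smooth muscle and pericyte sum was 171 to 485 CPM beside 65.4 to 89.7 in nt and the epithelial sum 40.4 to 83.0 beside 131 to 150 CPM, without overlap. Their part in the calls was not tested. Itgb1 was 199, 187 and 273 CPM, below every nt library (log2 fold change -0.65, SE 0.28, adjusted p = 0.215).

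siEp300, against a histone acetyltransferase, had Cd44 high and Thy1 low. Cd44 had 472, 511 and 606 CPM, all above nt (log2 fold change 1.13, SE 0.24, adjusted p = 0.000535), with 3.02% of all genes called higher. The call was lost without replicate 2 (adjusted p = 0.0687). Thy1 had 129, 156 and 131 CPM, its lowest mean among the 42 conditions and below every nt library, though not called against nt (log2 fold change -0.58, SE 0.32, adjusted p = 0.287). Direct comparisons, added after these values were seen, placed Thy1 lower in siEp300 than in siWdr5 (log2 fold change -1.63, SE 0.28, adjusted p = 3.17e-06) and than in siCdk1 (log2 fold change -2.0, SE 0.27, adjusted p = 4.17e-09), with 2.69% and 0.697% of all genes called lower. Both held under each alternative that was run. These alternatives use the same libraries from which the comparisons were picked, and so add no separate evidence. Cd44 differed in these comparisons by 0.08 (SE 0.21) and -0.10 (SE 0.21) on the log2 scale. Cdh11 (129, 70.9 and 86.0 CPM) was lower in siEp300 than in siWdr5 too, with a log2 fold change of -1.87 (SE 0.33, adjusted p = 7.21e-06), as was Pdgfra (14.3, 0 and 13.6 CPM, 4 counts against 20; adjusted p = 0.0215), whose call was lost without replicate 1 (0.211), 2 (0.233) or 3 (0.0711). With limma the Cdh11 difference was not called (adjusted p = 0.0847). Between siEp300 and siWdr5 the fibroblast sum (2624 to 4103 and 4900 to 6028 CPM) and the epithelial sum (100.1 to 184 and 26.4 to 56.9 CPM) did not overlap, and their part was not tested. Between siEp300 and siCdk1 the epithelial sum (100.1 to 184 and 40.4 to 83.0 CPM) and the neural sum (49.8 to 85.8 and 116 to 172 CPM) did not overlap. The fibroblast and the smooth muscle and pericyte sums of these siRNAs overlapped, and the part of the markers was not tested. The Ep300 count in siEp300 libraries was not below that elsewhere, as given above, so that the direction rests on the label. The fibroblast marker sum was 2624 to 4103 CPM in siEp300, overlapping nt. The smooth muscle and pericyte sum was 411 to 901 CPM beside 65.4 to 89.7 CPM in nt, without overlap, and the epithelial sum 100.1 to 184 CPM, overlapping nt. The neural sum was 49.8 to 85.8 CPM beside 117 to 147 CPM in nt, without overlap. Their part in the Cd44 call was not tested.

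**Figure D2:**
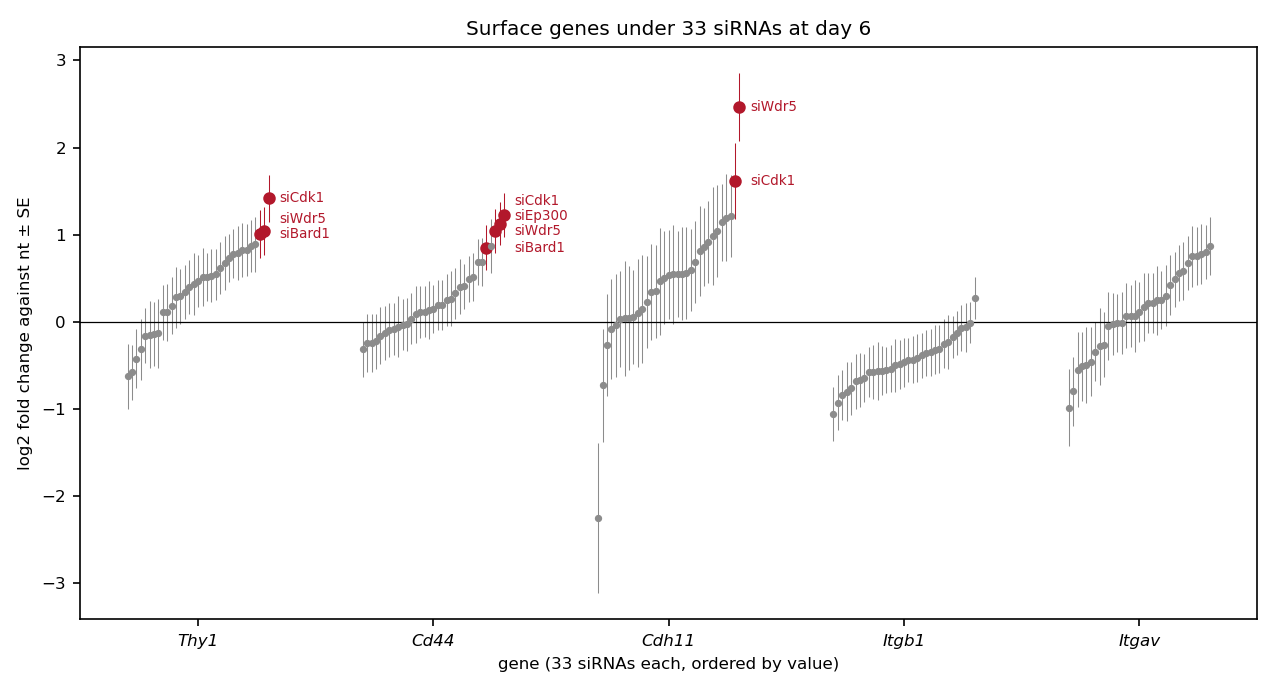
Log2 fold change against nt ± SE (y axis, edgeR) of the 5 members with the most counts under each of 33 siRNAs, ordered by value within a gene (x axis). Large red points, named, have an adjusted p under 0.05; all 9 are above 0 and none belongs to Itgb1 or Itgav.

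In the other 29 siRNAs edgeR called 0 of 261 member-siRNA pairs, with 34 at an unadjusted p under 0.05 (20 higher and 14 lower), beside 12.5% of all gene-siRNA pairs, and DESeq2 and limma called 0 as well. With nt and Mock joined as control, 14 pairs were called in all: the 9 above, Cd44 in siBrca1, siEny2 and siMtf1, Pdgfra in siWdr5 (all higher) and Itgav in siPou5f1 (lower). Mock columns of the same pool count as separate libraries in that fit. Mean levels over the 33 siRNAs ran from 139 to 559 CPM for Thy1 (median 285), from 190 to 570 for Cd44 (median 277), from 11.3 to 346 for Cdh11 (median 85.9), from 179 to 437 for Itgb1 (median 261) and from 103 to 354 for Itgav (median 219).

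Itgb1 had a mean above nt in 4 of 33 siRNAs, beside 25 for Thy1, 24 for Cd44, 23 for Cdh11 and 22 for Itgav. Its fitted log2 fold change was above 0 in 1 of 33 and below 0 in 32. These counts share 1 set of 3 nt libraries, of which replicate 3 had the highest Itgb1 value (299.8, 284 and 433 CPM). edgeR called 0 of 33, with 12 at an unadjusted p under 0.05, all lower, beside 12.5% of all gene-siRNA pairs. DESeq2 and limma called 0, with 6 and 2 at an unadjusted p under 0.05, and with nt and Mock joined there were 6. The lowest mean was in siTead2 (253, 150.3 and 135 CPM; log2 fold change -1.06, SE 0.31, adjusted p = 0.0695), where each library lay below each nt library. The highest was in siIrx1 (485, 466 and 359.8 CPM). Itgav was likewise called in 0 of 33, with 8 at an unadjusted p under 0.05 (6 higher, 2 lower), and 0 by DESeq2 and limma. Its lowest mean was in siPou5f1 (158, 94.6 and 56.3 CPM; log2 fold change -0.99, SE 0.44, adjusted p = 0.2) and its highest in siBrca1.

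siPou5f1, which targets 1 of the 4 reprogramming factors, gave the lowest Cdh11 of the series. Its libraries had 22.5, 0 and 11.3 CPM, 2 counts against 15 in nt, a ratio of 0.185 over library totals (exact 95% interval 0.0205 to 0.794), and all lay below nt, but the difference did not pass (adjusted p = 0.107). Thy1 (145 ± 56.3 CPM), Cd44 (197 ± 66.0) and Itgb1 (223 ± 76.8) were below their nt means as well, none of them called.

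**Figure D3:**
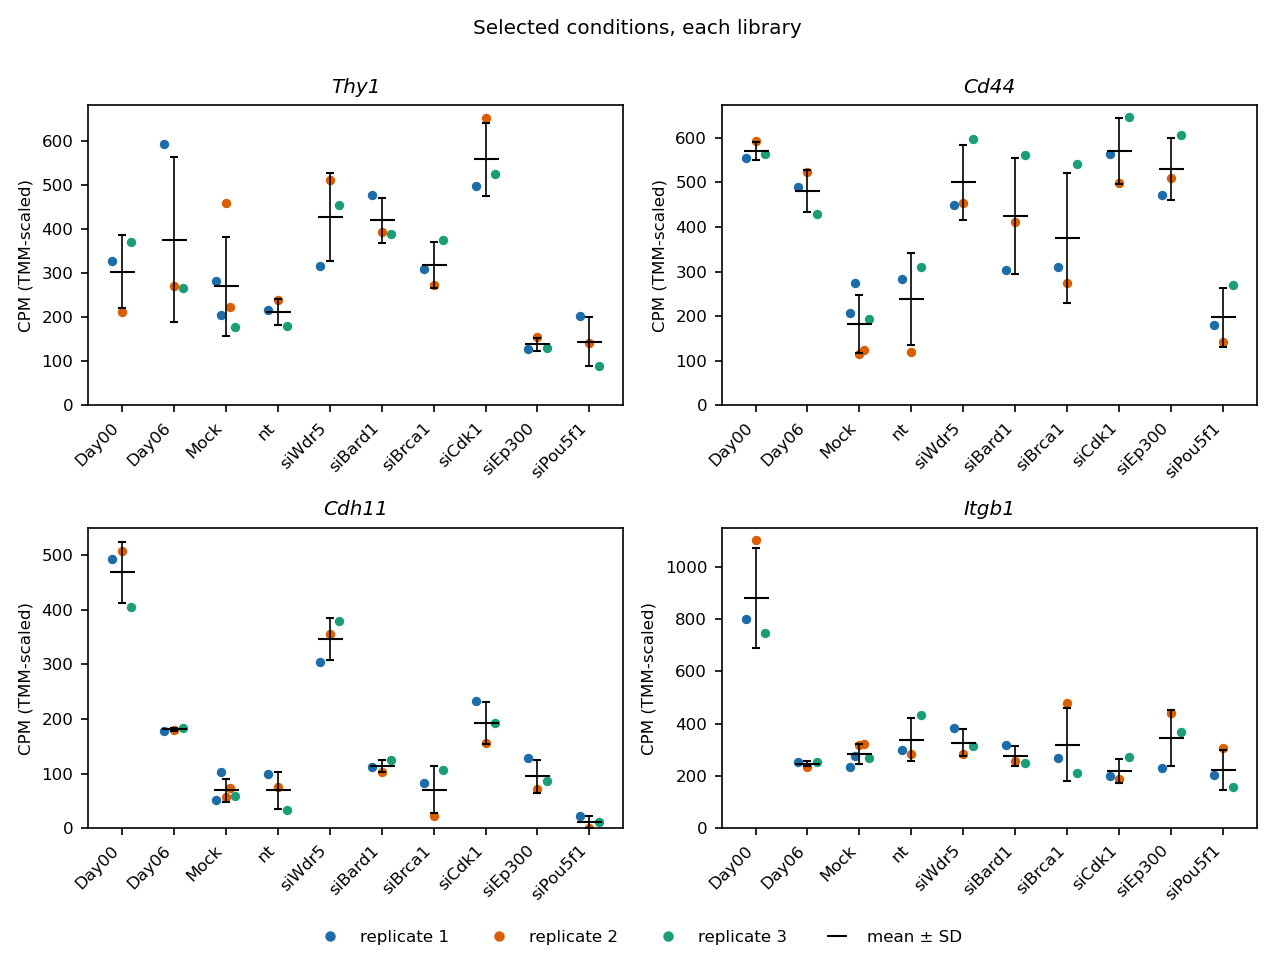
CPM (y axis, linear, scaled by TMM) of Thy1, Cd44, Cdh11 and Itgb1 in 10 conditions (x axis). Points are libraries coloured by replicate, black bars mean ± SD (n = 3 libraries, 5 from 3 pools for Mock). Thy1 was at 129 to 156 CPM in siEp300, where Cd44 was at 472 to 606, and Cdh11 was at 304 to 380 in siWdr5 against 32.7 to 99.9 in nt.

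Over the 42 condition means of log2 CPM, the members' levels were correlated to different degrees, given here as a description since the points share sequenced pools and controls. Pearson's r was 0.65 for Cdh2 with Cdh11 and for Itgb1 with Cdh2, 0.64 for Cd44 with Cdh11, 0.59 for Itgb1 with Itgav and 0.05 for Thy1 with Itgb1, the lowest of the 15 pairs. Among the 3012 other tested genes, the profile most like that of Cdh11 was that of Calr (r = 0.87), then Sparc (0.85), a matrix glycoprotein. For Cd44 these were Actg1 (0.80), a cytoplasmic actin, and Thbs1 (0.79), a matrix protein. For Itgb1 they were Nek7 (0.78) and Cald1 (0.76), for Itgav Col1a2 (0.79) and Gnai2 (0.78), and for Cdh2 Gm8464 (0.81) and Calr (0.79). Thy1 had the weakest match, Serpine2 (0.64) and Sgpl1 (0.63).

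Within pairs of members of like function, the share of counts was compared between conditions (counts of the libraries added, exact 95% binomial interval, counting error only). Cdh2 made up 22.4% of Cdh2 and Cdh11 counts at Day00 (15.4 to 30.7%), 15.5% at Day06 (7.3 to 27.4%) and 10.2% in siWdr5 (5.0 to 18.0%), where Cdh11 alone was called. In nt its share was 21.1% (6.1 to 45.6%), an interval that overlaps that of siWdr5. In siBard1 it made up 36.7% (23.4 to 51.7%), most of it from replicate 1. Pdgfra made up 35.5% of the counts of both PDGF receptors at Day00 (19.2 to 54.6%), 66.7% at Day03 (47.2 to 82.7%) and 69.0% in siWdr5 (49.2 to 84.7%). Its share was 64.3% at Day06 (35.1 to 87.2%), 83.3% in nt (35.9 to 99.6%) and 77.8% in Mock (40.0 to 97.2%), intervals that overlap that of siWdr5. These shares rest on few libraries: 14 of the 20 Day00 Pdgfrb counts came from replicate 3, and at Day03 replicate 1 held 9 Pdgfra and 0 Pdgfrb counts where replicate 3 held 10 and 9. Itgb1 was 55.5% of Itgb1 and Itgav counts at Day00 (49.9 to 61.0%), 44.97% at Day06 (36.8 to 53.3%), 66.2% in nt (57.6 to 74.1%) and 51.3% in Mock (41.8 to 60.7%).

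Genes that work with the members were followed in lists chosen by function, with earlier results of these data known. Counts of calls within a list are therefore descriptions and not tests of the list. None of 19 other integrin subunits passed the low-count filter, and of these 19, 0 were called in edgeR's second fit at Day06 against Day00, in nt against Day06 or in siWdr5 against nt. Among 19 cadherins and catenins, 18 had counts. At Day06 Cdh1, Epcam and Cdh13 were called higher than at Day00 and Pcdh19 and Ctnna1 lower, beside 10.7% and 11.5% of all genes called higher and lower. Cdh1 had 13 counts at Day06 and none at Day00, which makes it at least 3.71-fold higher, taking 3 counts as the floor of the Day00 libraries together, and Epcam 9 and none, at least 2.57-fold higher. Cdh13 had 26 counts against 2, a ratio of 11.1 (exact 95% interval 2.79 to 96.8). Cdh1, Epcam and Cdh13 thus rose between the days between which Cdh2 and Cdh11 fell. In siWdr5 Pcdh19, Pcdh7 and Ctnna1, an actin linker of cadherins, were called higher than in nt (Pcdh7 by 1.47 on the log2 scale, SE 0.42, adjusted p = 0.00437), beside 12.2% of all genes. Pcdh19 and Ctnna1 were also called lower in nt than at Day06, beside 11.0% of all genes. Pcdh19 had 0 counts in nt and 7 at Day06, at least 2.63-fold lower, and Ctnna1 differed by -1.24 on the log2 scale (SE 0.41, adjusted p = 0.0148).

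Of the 26 focal adhesion adaptors, which tie integrins to actin, 11 were called lower at Day06 than at Day00 and none higher, beside 11.5% of all genes called lower. Of the 26, 10 passed the low-count filter. Tgfb1i1 went from 43 counts to 1 (ratio 50.2, 95% interval 8.54 to 2029), Tln2, a talin, from 25 to 1 (29.2, 4.78 to 1199) and Ilk, integrin-linked kinase, from 12 to 1 (14.0, 2.07 to 599). In nt against Day06, 4 were lower (Parva, Actn1, Tns3 and Lpp), beside 11.0% of all genes, with Actn1, an actin cross-linker, at 84.3 against 277 CPM (log2 fold change -1.67, SE 0.38, adjusted p = 0.00029). In siWdr5 against nt, 6 were higher, beside 12.2% of all genes, and none lower. They included Fermt2 (15 counts against 2, ratio 7.80, 1.81 to 70.3), Pdlim7 (18 against 3, 6.24, 1.82 to 33.1) and Parva (29 against 8, log2 fold change 1.78, SE 0.59, adjusted p = 0.0152).

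Of the 17 matrix ligands of the integrins with counts, 9 were called lower at Day06 and none higher, beside 11.5% of all genes called lower. Of the list, 9 passed the low-count filter. Postn, periostin, went from 525 ± 59.2 CPM to 20.5 ± 8.28 (SD, n = 3 each; log2 fold change -4.67, SE 0.62, adjusted p = 6.47e-11). Ctgf went from 20 counts to 1 (ratio 23.4, 3.74 to 968) and Fbln5 from 21 to 3 (8.17, 2.44 to 42.8). In siWdr5 against nt 4 were higher, beside 12.2% of all genes: Thbs1, thrombospondin, at 1606 ± 208 against 261 ± 110 CPM (log2 fold change 2.73, SE 0.24, adjusted p = 4.49e-21), Col1a1 (2.67, SE 0.27, adjusted p = 3.5e-17), Col1a2 (2.05, SE 0.23, adjusted p = 2.6e-14) and Tnc. In nt against Day06 Col1a1, Thbs1 and Col1a2 were lower, by 1.39, 1.36 and 1.24 on the log2 scale, and Spp1 was higher. Of all 3013 tested genes 11.0% were called lower there and 470 genes higher. Col1a1, Col1a2 and Postn also stand in the fibroblast marker list above.

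Of the Cd44 partners with counts, Vcan and Msn were called at Day06. Vcan, the hyaluronan-binding proteoglycan, went from 804 ± 91.5 CPM at Day00 to 286 ± 29.9 at Day06 (log2 fold change -1.44, SE 0.25, adjusted p = 9.17e-07) and Msn, moesin, which links Cd44 to actin, from 686 ± 15.0 to 248 ± 85.9 (-1.58, SE 0.27, adjusted p = 3.13e-07). These 2 of 13 with counts were called, both lower, beside 11.5% of all genes, with Cd44 not called. In siWdr5 against nt Vcan (2.22, SE 0.28, adjusted p = 5.1e-12), Msn (0.85, SE 0.34, adjusted p = 0.0456) and Rdx (0.84, SE 0.33, adjusted p = 0.0443) were higher, beside 12.2% of all genes, as was Cd44. In nt against Day06 Vcan alone of this list was called, lower by 0.84 on the log2 scale (SE 0.32, adjusted p = 0.0396), beside 11.0% of all genes.

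Of 29 ligands of the PDGF receptors and other receptor tyrosine kinases, Pdgfc (13 counts to 1, ratio 15.2, 2.28 to 645) and Axl, the Gas6 receptor (593 ± 56.4 to 161 ± 41.8 CPM, log2 fold change -1.86, SE 0.31, adjusted p = 3.07e-07), were called lower at Day06, beside 11.5% of all tested genes. Of the 29, 5 passed the low-count filter. Met was lower in nt than at Day06 (log2 fold change -1.90, SE 0.67, adjusted p = 0.0238). Epha4 was higher in siWdr5 than in nt, with 32 counts against 3 (ratio 11.1, 3.47 to 56.6). Each was the 1 gene of the list called, where 11.0% and 12.2% of all genes were.

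**Figure D4:**
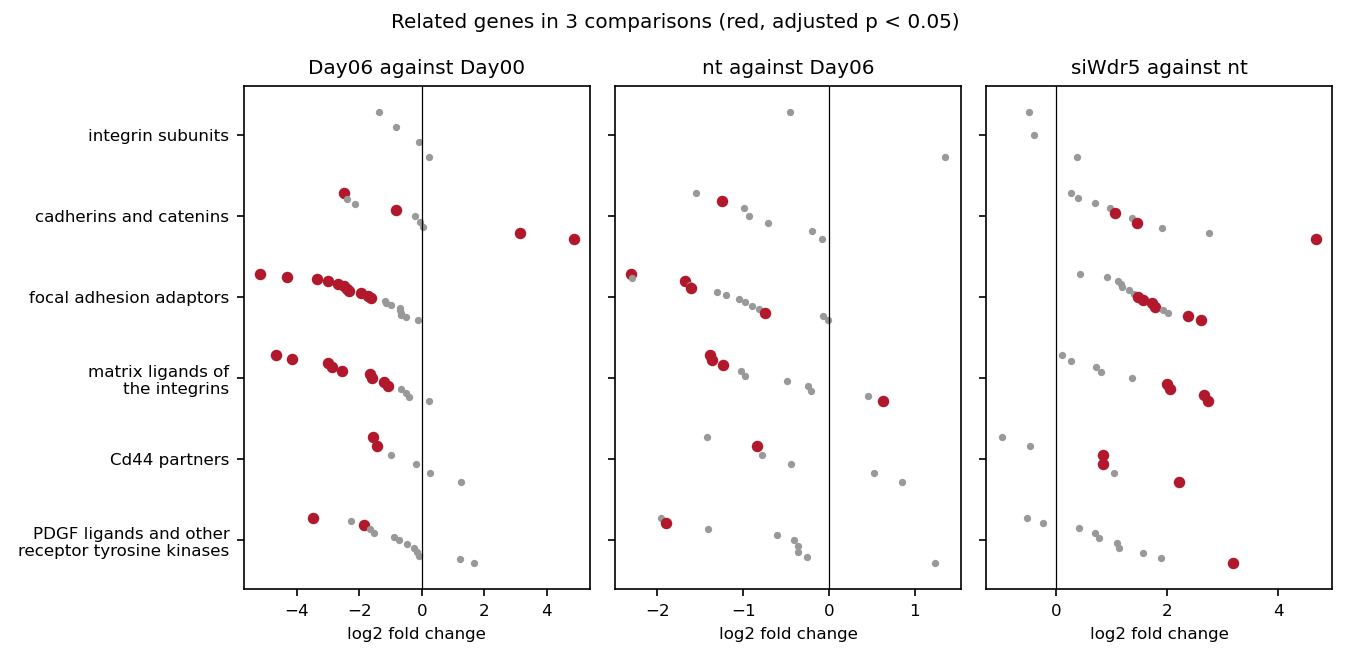
Log2 fold change (x axis, edgeR) of single genes of 6 lists (y axis; vertical spread within a list only separates points) at Day06 against Day00, nt against Day06 and siWdr5 against nt, for genes with at least 10 counts in the 2 conditions together. Red points have an adjusted p under 0.05: 11 focal adhesion adaptors and 9 matrix ligands lay below 0 at Day06, and 6 and 4 lay above 0 in siWdr5.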

How the data were processed

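The authors sequenced CEL-Seq2 libraries of 3 replicates, each pooled as 1 sample, mapped reads with Bowtie2 to mm10, and deposited unnormalized UMI-corrected counts per gene symbol (GENCODE vM13) from the CEL-Seq2 pipeline. They also deposited log2 values, made from log2 CPM by size-factor scaling and regression of the batch and centred near 0 for each gene, so these are relative levels. The condition of a library was taken from its column name. Counts of 127 of 129 libraries were used, since the other 2 held under 10000 counts (6403 and 7981).

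Counts were fitted in R 4.3.3 with edgeR 4.0.16 (quasi-likelihood test, TMM scaling, filterByExpr by condition, a term per condition and the replicate as a block) over all 127 libraries, giving 3013 genes, 83 residual degrees of freedom, a common dispersion of 0.0158 and TMM factors from 0.825 to 1.39. A second fit of 3138 genes added listed genes below the filter. P-values were adjusted by Benjamini-Hochberg over all genes of a comparison with a threshold of 0.05, and SEs were derived from the test statistic. The study transfected cells in triplicate, and whether replicates came from separate fibroblast preparations is not given in the sources used here, so p-values measure the spread between these libraries. Replicate pairs differed by more than sampling noise (chi-square per gene 1.30 to 5.68). The replicate number marks the shared sequenced pool. Deviations from the condition mean correlated with a median r of 0.0981 within a number and -0.0685 between numbers (0.0579, 0.0861 and 0.220 within replicates 1, 2 and 3), and the block was kept.

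All 9 members were named. From a list of related genes, up to 3 called genes with the largest log2 fold change were described in each of 3 comparisons, and for each member past the filter the 2 genes with the highest r over condition means of log2 CPM with the replicate removed. The members and lists were chosen with earlier results of these data known. Totals ran from 29656 to 235292 counts (median 73279), and counting intervals (95%) and the floor of 3 counts cover counting error only. DESeq2 1.42.0, limma 3.58.1 on the deposited log2 values, other scalings, filters and controls, fits of the compared conditions alone and fits without the block or a replicate were the alternatives. Itga5 was not tested with limma. The script was tested on simulated data. Motifs, intervals and sums were computed with Python 3.11.15 and SciPy 1.17.1.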

Additional observations from a re-analysis of the deposited data

Results flagged for a closer look

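Differences between knockdowns of the same contrast against nt were tested directly for all 9 members, and 6 of them passed (edgeR quasi-likelihood test, Benjamini-Hochberg adjusted p over all genes). The pairs were siWdr5 against siBard1 and siBrca1, siBard1 against siBrca1, which gave none, and siEp300 against siWdr5 and siCdk1. Of all genes, 3.19% and 3.02% were higher in siWdr5 than in siBard1 and siBrca1. Between siBard1 and siBrca1 0.863% were called, and 2.69% and 0.697% were lower in siEp300 than in siWdr5 and siCdk1. Cdh11 was higher in siWdr5 than in siBard1 by 1.55 and than in siBrca1 by 2.12 on the log2 scale, in 3 of 3 libraries each time. In siEp300 the log2 fold change against siWdr5 was -1.63 for Thy1, -1.87 for Cdh11 and -2.59 for Pdgfra, with 3 of 3 libraries of siEp300 below all of siWdr5 for each gene. Thy1 in siEp300 against siCdk1 had a log2 fold change of -2.0, with all 3 libraries below. Marker sums that did not overlap between siEp300 and these siRNAs are given above, and their part was not tested. The comparisons with siEp300 were chosen after the values were seen, and the Pdgfra difference rests on 4 counts against 20. With limma on the deposited log2 values Cdh11 was not called in siWdr5 against siBard1 (adjusted p = 0.405) or siBrca1 (0.145). In siEp300 against siWdr5 limma called neither Cdh11 (0.0847) nor Pdgfra (0.217). In the Mock group of 5 libraries, the group large enough to be examined for a library apart, no member had one. These come from 3 pools, and whether columns that share a name are separate cultures is not given.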

How the results depend on the processing

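The 42 member comparisons past the threshold were recomputed under up to 11 alternatives, giving 440 values, of which 341 stayed past it, 99 did not and 0 changed direction. Under every alternative run, 11 held: Itgb1 from Day02 to Day06, Itgav at Day04 and Day05, Cdh11 at Day05 and in siWdr5, and Thy1 in siEp300 against siCdk1 and siWdr5. The siEp300 comparisons with these siRNAs and Day02 against Day01, all within the 42, were chosen after the values were seen. Without the replicate block 34 of 42 held and 8 were lost. Members called over any day went from 5 to 3, those at Day03 from 3 to 1 and those in siBard1 from 2 to 1. With a filter of 1 count in 3 libraries, which tested more genes, the counts called were 3 at Day06, 14 of the member-day pairs, 3 over any day, 0 in siBard1 and 0 in nt against Day06. With limma on the deposited log2 values they were 1 at Day06, 12 of the member-day pairs, 3 over any day, 1 of the member-siRNA pairs, 1 in siWdr5, 0 in siBard1, 0 in siWdr5 against siBard1, 0 against siBrca1, 1 in nt against Day06, 1 in siEp300 against siWdr5 and 0 at Day02 against Day01. With nt and Mock joined as control there were 14 member-siRNA pairs, 1 of them in siBrca1, and with total counts and no TMM Itgav was the 1 member called in siBrca1 and was also called in siBard1 (adjusted p = 0.0482). With RLE size factors 7 members were called over any day. The cause of these changes was not tested. Leaving out 1 replicate gave 2 to 3 members at Day06, 14 to 16 member-day pairs, 3 to 4 over any day, 5 to 7 member-siRNA pairs, 2 to 3 in siWdr5, 0 to 1 in siBard1, 1 to 2 in nt against Day06, 0 at Day02 against Day01 and 2 in siEp300 against siWdr5. DESeq2 kept 38 of 42, RLE size factors 42, and fits of the 2 conditions alone 20 of 20. Depth limits Itga5, Pdgfra, Pdgfrb and Cdh2, with 28, 276, 118 and 263 counts over all libraries.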
